A study of Homo sapiens with 4 samples.

Results

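The secreted angiogenic and hypoxia factors VEGFA, VEGFB, VEGFC, PGF, ADM, ANGPTL4, EDN1, STC1 and STC2 were examined in KYSE170 cells, an oesophageal squamous cell carcinoma line, after exposure to ethyl-3,4-dihydroxybenzoate (EDHB). Members were taken by gene symbol, and every probe set that the platform annotation assigns to exactly 1 gene was kept. All 9 genes had at least 1 such probe set, 19 probe sets in all, out of 19775 genes and 41091 single-gene probe sets on the array. The study placed total RNA on 4 Affymetrix arrays, 2 from cells exposed for 12 h to 50 µg/ml of EDHB and 2 from untreated cells of the same line grown in the same serum-containing medium. Nothing in the sample labels says that the arrays of a group came from separate cultures, so each p-value measures the spread between arrays, which may be technical. Only 1 cell line was used, and 2 arrays a group limit the precision of every value.

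EDHB resembles the substrates of the oxygen-sensing prolyl hydroxylases and inhibits them. When these enzymes are inactive, through lack of oxygen or through an inhibitor, the alpha subunits of hypoxia-inducible factor (HIF) escape degradation, enter the nucleus and bind a short DNA core in the regulatory regions of their target genes. In carcinomas several of these targets encode proteins that leave the cell: VEGF-family ligands that act on blood and lymphatic vessels, vasoactive peptides, and glycoprotein hormones with local roles.

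The deposited values are RMA intensities, here expressed as log2. They ran from 1.55 to 13393 on the linear scale, with a median of 23.3 to 23.5 in the 4 arrays, and the median probe set had a log2 level of 4.54. The values of the second EDHB and second untreated array did not sit beside the probe set names they belong to. The correlation between the EDHB arrays was 0.418 as deposited and 0.997 after the row order had been restored, which placed 54465 of 54613 probe sets (99.7%). All 19 member probe sets were restored. Names were matched by the untreated levels. EDHB levels entered only through a division of each replicate into probe sets at least 2-fold higher, at least 2-fold lower and the rest. That division was itself inferred from the values. The restored order is an inference from the values, and replicate 1 alone does not depend on it. The cells carried epithelial transcripts: 11 of 12 epithelial marker probe sets lay above the median level. Among them were EPCAM at 11.96, CDH1 at 10.97, DSC3 at 8.37 and KRT5 at 6.48, while KRT14 lay below it at 3.70. These came from 7 of the 10 genes listed, and TP63, KRT6A and KRT17 had no single-gene probe set. Of the markers of other cells, 12 of 14 endothelial and 18 of 23 fibroblast probe sets lay below the median level. Of the blood cell probe sets 7 of 13 did, near the share of all probe sets, 27232 of 54465. The 5 probe sets of the leukocyte gene PTPRC lay at 1.10 to 1.98, but those of HBB and CD79A lay above the median level, at 4.65 to 5.23. COL1A1 of the fibroblast list also had probe sets above it, up to 6.37. An array averages over a whole culture, so fewer cells making a transcript and less of it per cell cannot be told apart.

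VEGFA, ADM, STC2 and 1 probe set of STC1 read at least 1.5-fold higher after EDHB in both replicates, from 1.58-fold to 2.5-fold on average. VEGFB, PGF and ANGPTL4 differed by 1.14-fold or less, VEGFC was 1.27-fold lower, and 2 of the 3 EDN1 probe sets differed in opposite directions in the 2 replicates. Both EDHB arrays lay above both untreated arrays in 9 of the 19 probe sets, against 20.2% of all restored probe sets. They lay below in 2, against 21.8% of all, and the groups overlapped in 8. A difference of at least 1.5-fold upward within both replicates was found in 8 member probe sets, from 4 genes, against 0.465% of all probe sets, and none was that much lower, against 0.215% of all. No member passed an adjusted p of 0.05 in limma with Benjamini-Hochberg adjustment over all restored probe sets, and 0.0% of all probe sets did. The lowest adjusted p among the members was 0.205. When probe sets below the median level were removed before the fit, 5 of the 14 remaining member probe sets passed (3 of VEGFA, and those of ADM and STC2 203439_s_at), all with higher levels after EDHB. Of the 27233 probe sets in that fit 1.22% passed, and 0.745% passed with a higher level. At an unadjusted p under 0.05, 8 member probe sets were higher and 1 was lower, against 6.45% and 6.97% of all. The median log2 change of the 19 was 0.19, and that of all probe sets was -0.01. A log2 change is the mean of the EDHB arrays minus the mean of the untreated arrays, with its standard error (SE, n = 2 arrays each) from limma.

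**Figure D1:**
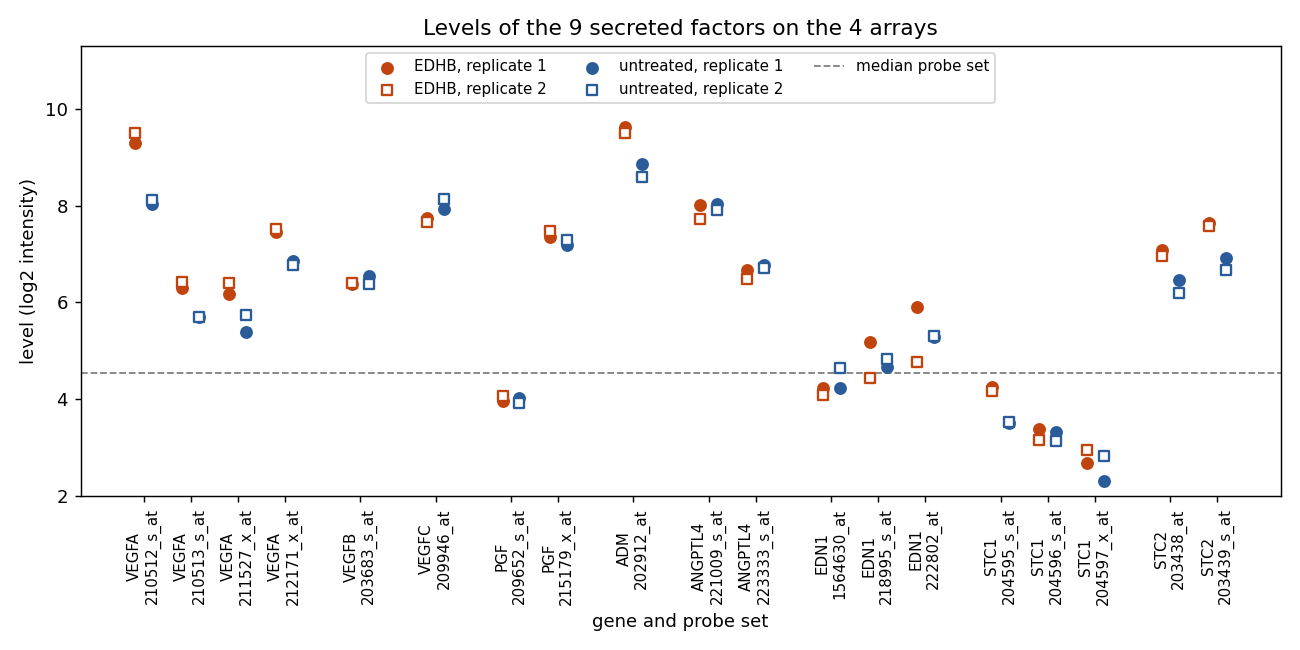
Log2 intensity of each member probe set in every array, EDHB arrays beside untreated arrays, with the level of the median probe set as a dashed line. The points of VEGFA, ADM and STC2 stand apart by group, while those of VEGFB, ANGPTL4 and EDN1 overlap or nearly so.

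VEGFA, the main growth factor for blood vessels, which signals through the receptors FLT1 and KDR, had 4 probe sets, and its EDHB arrays lay above its untreated arrays in each. Probe set 210512_s_at read 9.30 and 9.50 in the EDHB arrays, against 8.04 and 8.12 in the untreated arrays. The groups did not overlap, and the gap between them was larger than the gap within either. The log2 change was 1.32 ± 0.10 (2.5-fold, 95% interval 1.05 to 1.59, adjusted p = 0.205), the 27th highest of all restored probe sets. With a prior variance that follows intensity, it was the 1 member past the threshold (adjusted p = 0.0357 in limma), where 0.0789% of all probe sets passed and 0.0422% passed with a higher level.

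The other 3 VEGFA probe sets had smaller differences. Probe set 212171_x_at read 7.46 and 7.52 in the EDHB arrays and 6.85 and 6.78 in the untreated arrays, a log2 change of 0.68 ± 0.08. Probe set 210513_s_at read 6.30 and 6.41 in the EDHB arrays and 5.69 and 5.70 in the untreated arrays, a log2 change of 0.66 ± 0.08. Probe set 211527_x_at read 6.18 and 6.39 in the EDHB arrays and 5.39 and 5.74 in the untreated arrays, a log2 change of 0.71 ± 0.15. All 3 kept the groups apart without passing the adjusted test (adjusted p = 0.206, 0.211 and 0.25 in limma). Within replicate 1 the change of 210512_s_at was 1.26, and that of the other probe sets was 0.61 to 0.79. Within replicate 2 it was 1.39, against 0.64 to 0.75. The difference between 210512_s_at and the mean of the others was 0.59 in replicate 1 and 0.69 in replicate 2. The probe sets of VEGFA thus gave 1 direction and sizes that fell into a larger value and 3 like ones. Which transcripts each probe set reads was not analysed here.

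**Figure D2:**
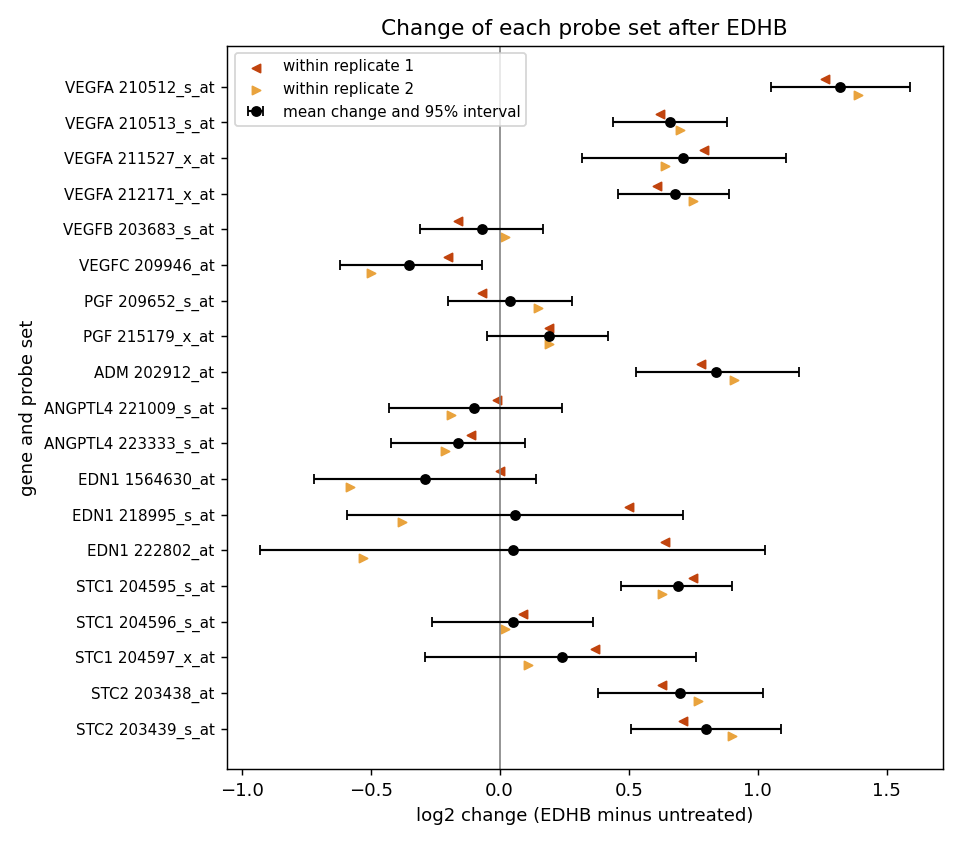
Log2 change of each member probe set, EDHB minus untreated, with its 95% interval from limma (n = 2 arrays each) and the change within each replicate as separate points. The intervals of all VEGFA, ADM and STC2 probe sets and of STC1 204595_s_at lie above 0, led by VEGFA 210512_s_at at 1.32, and that of VEGFC lies below 0.

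The other VEGF-family ligands had smaller differences or lower levels. VEGFB, a ligand of FLT1 with roles in heart and fat tissue, read 6.38 and 6.40 in the EDHB arrays, against 6.54 and 6.38 in the untreated arrays, and the groups overlapped. Its log2 change was -0.07 ± 0.09, with a 95% interval of -0.31 to 0.17. PGF, placental growth factor, also a ligand of FLT1, read 7.36 and 7.47 in the EDHB arrays and 7.18 and 7.28 in the untreated arrays with probe set 215179_x_at. Those groups did not overlap, but by a small margin: the log2 change was 0.19 ± 0.09, with an interval of -0.05 to 0.42. The second PGF probe set, 209652_s_at, lay below the median level, at 3.95 and 4.07 in the EDHB arrays and 4.02 and 3.92 in the untreated arrays, a change of 0.04 ± 0.09.

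VEGFC is the ligand of FLT4 that drives growth of lymphatic vessels. It was the only member with a probe set that was lower at an unadjusted p under 0.05 in limma. Among all restored probe sets 6.97% were, so 1 of 19 member probe sets is no more than that share. VEGFC read 7.74 and 7.65 in the EDHB arrays, against 7.93 and 8.14 in the untreated arrays. Both EDHB arrays lay below both untreated arrays, as in 21.8% of all probe sets. The changes were -0.20 within replicate 1 and -0.50 within replicate 2. The log2 change was -0.35 ± 0.11, a 1.27-fold lower level (95% interval -0.62 to -0.07), and it did not pass the adjusted test (unadjusted p = 0.0238, adjusted p = 0.313 in limma). On the same arrays VEGFA and VEGFC, ligands of 1 family, therefore had changes of opposite sign in both replicates.

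Among the vasoactive peptides, ADM and EDN1 differed in how well the replicates matched. ADM encodes adrenomedullin, a vasodilator peptide that acts through CALCRL with a RAMP partner and supports the vessel wall. Its single probe set, 202912_at, read 9.63 and 9.50 in the EDHB arrays, against 8.85 and 8.59 in the untreated arrays. The groups did not overlap, with changes of 0.78 within replicate 1 and 0.91 within replicate 2. The log2 change was 0.84 ± 0.12 (1.79-fold, 95% interval 0.53 to 1.16, adjusted p = 0.213 in limma).

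EDN1 encodes the vasoconstrictor endothelin-1, and its 2 brighter probe sets disagreed between replicates. Both had low signal, with mean levels of 5.31 (222802_at) and 4.77 (218995_s_at) against a median probe set of 4.54. Probe set 222802_at read 5.91 and 4.76 in the EDHB arrays, against 5.28 and 5.30 in the untreated arrays. The first EDHB array was thus the highest of the 4 and the second the lowest, so the change was 0.64 within replicate 1 and -0.53 within replicate 2. Probe set 218995_s_at gave the same picture, with 5.17 and 4.44 in the EDHB arrays and 4.67 and 4.82 in the untreated arrays. Its changes were 0.50 within replicate 1 and -0.38 within replicate 2. The mean changes of 0.05 ± 0.38 and 0.06 ± 0.25 are averages of opposite values, and the 95% interval of the first ran from -0.93 to 1.03. The second EDHB array minus the first gave -1.15 and -0.73 in these probe sets, whereas the untreated arrays differed by 0.02 and 0.15. The third probe set, 1564630_at, lay below the median level, at 4.22 and 4.08 in the EDHB arrays and 4.22 and 4.65 in the untreated arrays.

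The pattern of EDN1 was found in 21 of 27233 probe sets above the median level (0.0771%), counted as at least 1.3-fold higher within replicate 1 and at least 1.3-fold lower within replicate 2. The reverse pattern was found in 5 (0.0184%). This criterion was chosen after the values of EDN1 had been seen. It pairs arrays by replicate number, and no label states such a pairing. The 21 included both probe sets of the chemokine CXCL8, a secreted angiogenic factor, and the matricellular proteins CCN2 and CCN1, which were named after their values were seen. CCN2 read 7.06 and 3.59 in the EDHB arrays, against 4.79 and 5.02 in the untreated arrays. CXCL8 probe set 202859_x_at read 9.50 and 7.93 in the EDHB arrays, against 7.20 and 8.33 in the untreated arrays. For CCN2 the EDHB arrays were far apart and the untreated arrays close, as for EDN1, while for CXCL8 both groups were spread. With the untreated arrays paired the other way, CXCL8 would be higher in both pairs, so its opposite directions rest on the pairing by number. EDN1 222802_at and CCN2 would still differ in opposite directions. Replicate 2 values were matched to names by the untreated levels, so closeness of the untreated arrays is not independent of that matching. What set the 2 EDHB arrays apart in these genes was not tested.

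**Figure D3:**
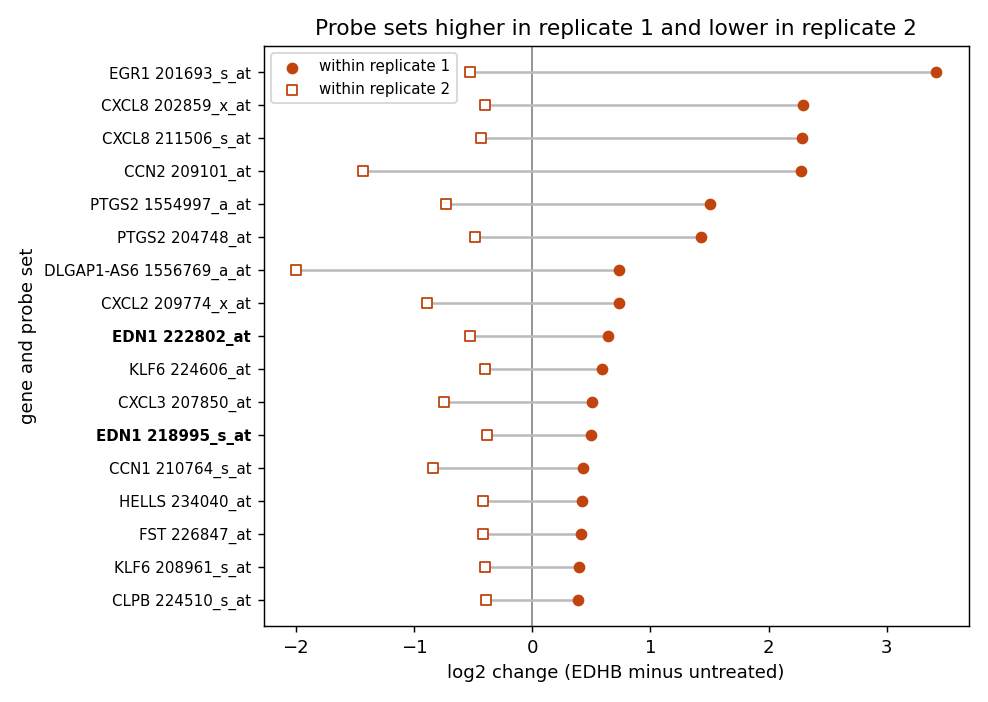
Log2 change, EDHB minus untreated, within replicate 1 (filled circles) and within replicate 2 (open squares) for the 17 single-gene probe sets, of 21, that read at least 1.3-fold higher in the first and at least 1.3-fold lower in the second. EDN1 222802_at, in bold, lies at 0.64 and -0.53, CXCL8 202859_x_at at 2.29 and -0.40, and CCN2 at 2.27 and -1.43.

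The stanniocalcins are secreted glycoproteins, named for a calcium-lowering hormone of fish, that act close to their source in mammals. STC2 had 2 probe sets with like differences. Probe set 203439_s_at read 7.63 and 7.57 in the EDHB arrays, against 6.92 and 6.67 in the untreated arrays, a log2 change of 0.80 ± 0.11 (1.74-fold, 95% interval 0.51 to 1.09). Probe set 203438_at read 7.09 and 6.96 in the EDHB arrays, against 6.46 and 6.19 in the untreated arrays, a log2 change of 0.70 ± 0.12 (1.63-fold, interval 0.38 to 1.02). Neither overlapped between groups and neither passed the adjusted test (adjusted p = 0.211 and 0.229 in limma).

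STC1 was dim, with all 3 of its probe sets below the median level. Probe set 204595_s_at read 4.25 and 4.16 in the EDHB arrays, against 3.51 and 3.53 in the untreated arrays, a log2 change of 0.69 ± 0.08 (adjusted p = 0.206 in limma). Its groups did not overlap. The groups of the other probe sets overlapped: 204596_s_at read 3.39 and 3.16 in the EDHB arrays and 3.31 and 3.14 in the untreated arrays, and 204597_x_at read 2.68 and 2.94 in the EDHB arrays and 2.31 and 2.83 in the untreated arrays. The difference in STC1 therefore rests on 1 probe set of 3.

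ANGPTL4, a secreted inhibitor of lipoprotein lipase that is a well-known target of HIF and of the PPAR receptors, had no higher level in either replicate. Probe set 221009_s_at read 8.02 and 7.73 in the EDHB arrays, against 8.03 and 7.91 in the untreated arrays, and the groups overlapped. Probe set 223333_s_at read 6.67 and 6.49 in the EDHB arrays, against 6.78 and 6.70 in the untreated arrays, with both EDHB arrays just below. The changes were -0.10 ± 0.13 and -0.16 ± 0.10 (adjusted p = 0.807 and 0.566 in limma). The upper ends of their 95% intervals, 0.24 and 0.10, lie well under the changes of VEGFA, ADM and STC2.

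**Figure D4:**
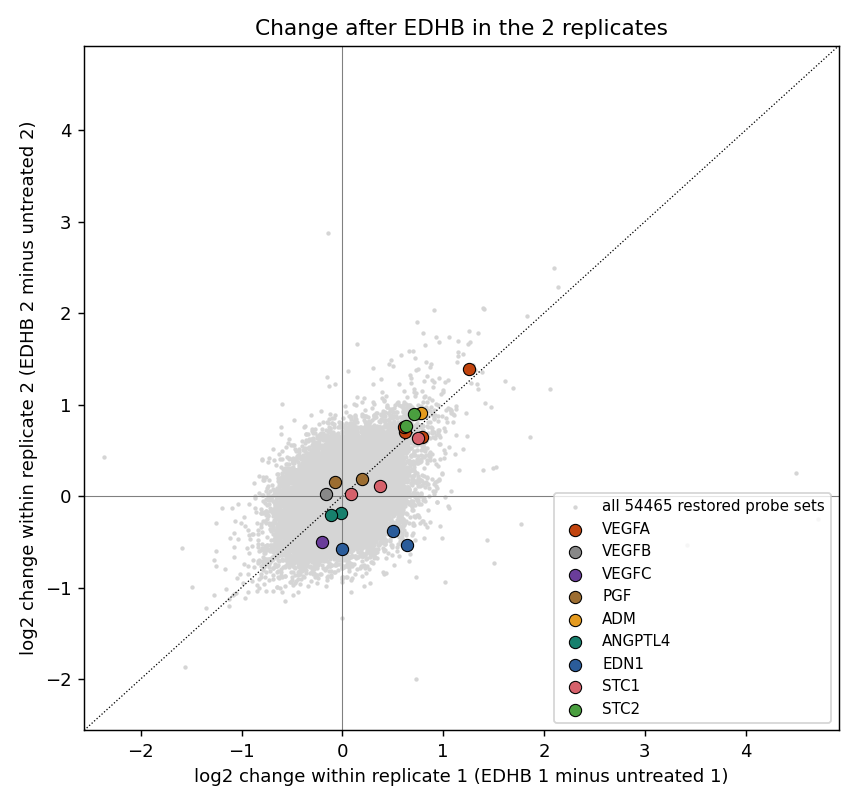
Change of every member probe set within replicate 1 (horizontal) and within replicate 2 (vertical), log2 EDHB minus untreated, over all restored probe sets. VEGFA, ADM, STC2 and 1 STC1 probe set lie together in the upper right, VEGFA 210512_s_at at 1.26 and 1.39, and 2 EDN1 probe sets lie in the lower right.

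HIF binds the 5-letter core ACGTG or GCGTG, and the proximal promoters show where these letters stand in members that differed in response. Promoter windows of 250 bases upstream of the start, from RefSeq on GRCh38.p14, were at hand for 7 of the 9 genes (10 starts). VEGFA, whose probe set 210512_s_at had the largest change among the members, and STC1 had no window. Of the 10 windows, 8 held the core on either strand. Of 35116 promoter windows of the same length, 43.2% held it, so holding it is common. ADM and STC2, higher after EDHB, are shown with ANGPTL4 and VEGFC, which were not higher. Each is written 5′ to 3′ on the gene's strand, and capitals mark the core or its reverse complement, CACGT or CACGC.
ADM, chr11:10304823-10305072, plus strand: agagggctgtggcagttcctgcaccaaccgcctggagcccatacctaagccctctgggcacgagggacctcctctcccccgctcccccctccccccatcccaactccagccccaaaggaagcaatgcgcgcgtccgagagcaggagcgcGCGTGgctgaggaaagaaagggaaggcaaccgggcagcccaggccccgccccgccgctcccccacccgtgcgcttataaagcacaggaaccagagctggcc
STC2, chr5:173328415-173328664, minus strand: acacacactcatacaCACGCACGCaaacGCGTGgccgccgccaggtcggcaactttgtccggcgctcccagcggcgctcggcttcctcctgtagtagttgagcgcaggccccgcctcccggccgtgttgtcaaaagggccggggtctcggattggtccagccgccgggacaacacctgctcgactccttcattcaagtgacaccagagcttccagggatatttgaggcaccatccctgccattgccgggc
ANGPTL4, chr19:8363905-8364154, plus strand: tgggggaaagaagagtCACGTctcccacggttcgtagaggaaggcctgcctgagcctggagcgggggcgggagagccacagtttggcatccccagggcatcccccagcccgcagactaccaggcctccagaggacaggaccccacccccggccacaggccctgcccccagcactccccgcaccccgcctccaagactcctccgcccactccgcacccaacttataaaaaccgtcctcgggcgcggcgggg
VEGFC, chr4:176792923-176793172, minus strand: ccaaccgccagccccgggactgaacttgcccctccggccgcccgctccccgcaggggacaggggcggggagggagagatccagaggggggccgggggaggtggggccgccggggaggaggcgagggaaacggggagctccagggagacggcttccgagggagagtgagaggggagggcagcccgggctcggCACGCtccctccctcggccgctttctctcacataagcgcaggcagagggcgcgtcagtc
ADM held 1 core, and STC2 held 3 near the far end of its window, of which the first 2 share 1 base. Of 3 EDN1 starts, whose windows are not shown, 1 also held 3, and windows with 3 or more made up 7.76% of all. ANGPTL4 held 1 core, of the ACGTG form, which EDN1 windows also held and which was found in 18.5% of all windows. VEGFC held 1 core. The letters were thus present both in genes that were higher after EDHB and in genes that were not, and a match is a description of the sequence, not a binding site.

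The receptors and co-receptors of these ligands were listed together. For this list, 34 probe sets from 10 of 11 genes were restored, with a median log2 change of -0.07 against -0.01 for all probe sets. Both EDHB arrays lay above in 5 (14.7%, against 20.2% of all) and below in 9 (26.5%, against 21.8% of all), and none passed the adjusted test in limma. The largest difference was in NRP2, a co-receptor for VEGF-family ligands: probe set 222877_at read 4.28 and 4.57 in the EDHB arrays, against 5.39 and 5.02 in the untreated arrays, a log2 change of -0.78 ± 0.17 (adjusted p = 0.252). All 11 NRP2 probe sets had a mean change below 0, from -0.78 to -0.02. Of these, 4 lay above the median level, both EDHB arrays were below in 5, and 2 were higher within replicate 1. Within replicate 2, 210842_at, 214632_at and 223510_at were higher, by 0.08, 0.04 and 0.05. In the whole list 25 of the 34 probe sets lay below the median level. NRP2 225566_at had a change of -0.24, and RAMP1 204916_at, part of the receptors for calcitonin-family peptides, had one of -0.21. Neither passed the test.

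The enzymes and partners that process the ligands showed no common direction. Of 21 restored probe sets from 10 of 11 genes, 7 were above and 7 below in both EDHB arrays (33.3% each, against 20.2% and 21.8% of all), the median change was -0.01, and none passed the adjusted test in limma. PAM, which amidates adrenomedullin into its active form, had 3 probe sets with changes of 0.36 to 0.44, and both EDHB arrays were above in all 3. Its probe set 212958_x_at read 8.94 and 9.27 in the EDHB arrays, against 8.58 and 8.74 in the untreated arrays (adjusted p = 0.321). CCBE1, a cofactor for the maturation of VEGFC, was lower in all 3 of its probe sets, with changes of -0.66 to -0.50, none past the adjusted test. CCBE1 was dim: only 1 of these probe sets lay above the median level of 4.54, 229641_at at a mean of 4.65. Probe set 229641_at read 4.43 and 4.33 in the EDHB arrays, against 4.81 and 5.03 in the untreated arrays. ECE2 227103_s_at, a relative of the enzyme that releases endothelin-1, had a change of -0.49 ± 0.10, but the 3 ECE2 probe sets ranged from -0.49 to 0.33.

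Relatives of the members and other secreted angiogenic factors had medians near that of all probe sets or below it. The relatives had 13 restored probe sets from 9 of 15 genes and a median change of -0.13. Both EDHB arrays lay above in 1 (7.7%) and below in 6 (46.2%), against 20.2% and 21.8% of all. Of the 13, 10 lay below the median level. In this list ADM5 232154_at had a change of -0.41 ± 0.10 and ADM2 220538_at, a peptide related to ADM, one of 0.17 ± 0.10. The other angiogenic factors had 44 restored probe sets from 20 of 24 genes, a median change of 0.01, and 7 above (15.9%) and 6 below (13.6%), against the same shares of all. EFNA1 is a ligand of EPH receptors that is anchored to the membrane, so the list's name fits it only in part. It read 8.32 and 8.42 in the EDHB arrays, against 8.00 and 7.89 in the untreated arrays, a change of 0.43 ± 0.09 (adjusted p = 0.25). FGF2, a fibroblast growth factor, had a change of -0.35 ± 0.12 at 204421_s_at, and TYMP 204858_s_at one of -0.16. ANG, angiogenin, a secreted ribonuclease named after its values were seen, was the 1 probe set of the list at least 1.5-fold higher within both replicates, where 0.465% of all were. Its 205141_at lay below the median level, at 4.39 and 4.47 in the EDHB arrays, against 3.76 and 3.69 in the untreated arrays, a change of 0.71 ± 0.08 (adjusted p = 0.205). No probe set of either list passed the adjusted test in limma.

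Among the secreted inhibitors of angiogenesis, THBS1 had the largest difference. The list's 34 restored probe sets from 13 of 13 genes had a median change of 0.04, with 8 above and 8 below in both EDHB arrays (23.5% each, against 20.2% and 21.8% of all). THBS1 encodes thrombospondin-1, an extracellular inhibitor of angiogenesis. Its probe set 235086_at read 5.66 and 5.60 in the EDHB arrays, against 7.22 and 7.47 in the untreated arrays, a log2 change of -1.72 ± 0.11 (adjusted p = 0.205 in limma, 0.0356 with an intensity-dependent prior). Its 201108_s_at read 7.20 and 7.23 in the EDHB arrays, against 7.77 and 8.22 in the untreated arrays, a change of -0.78 ± 0.16. All 5 restored THBS1 probe sets had a change below 0, from -1.72 to -0.26. Of these, 2 lay above the median level, and both EDHB arrays lay below both untreated arrays in 4. The THBS1 probe sets that could not be restored had changes of -0.96 and -0.66 within replicate 1. TIMP3 201148_s_at, an inhibitor of metalloproteinases, had a change of 0.33 ± 0.13.

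Genes inside the cell that hypoxia is known to induce read mostly higher after EDHB. Their 35 restored probe sets, from 18 of 21 genes, had a median change of 0.39, and both EDHB arrays lay above both untreated arrays in 28 of them (80.0%) and below in 1, against 20.2% and 21.8% of all probe sets. At least 1.5-fold upward within both replicates were 9 of the 35, against 0.465% of all probe sets and 8 of the 19 probe sets of the secreted members. The other 7 of the list's 42 probe sets could not be restored and enter none of these counts. Within replicate 1 they had log2 changes of 0.88 to 2.01. NDRG1 200632_s_at had a log2 change of 2.30 ± 0.23, and the mitophagy receptor genes BNIP3L 221478_at and BNIP3 201849_at had changes of 1.34 ± 0.20 and 1.14 ± 0.11. The change of VEGFA 210512_s_at, 1.32, was close to those of BNIP3L and BNIP3. The other 3 VEGFA probe sets, at 0.66 to 0.71, and those of ADM, STC1 and STC2 were below them. No probe set of the list passed the adjusted test in limma. With an intensity-dependent prior 4 passed, against 0.0789% of all: MIR210HG 236480_at, BNIP3 201848_s_at and 201849_at, and P4HA1 207543_s_at. NDRG1 and BNIP3L did not pass. MIR210HG 236480_at lay below the median level and had a change of 2.21 ± 0.09. Earlier results of these data were known when the lists were drawn up, so their counts are descriptions and not independent support.

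**Figure D5:**
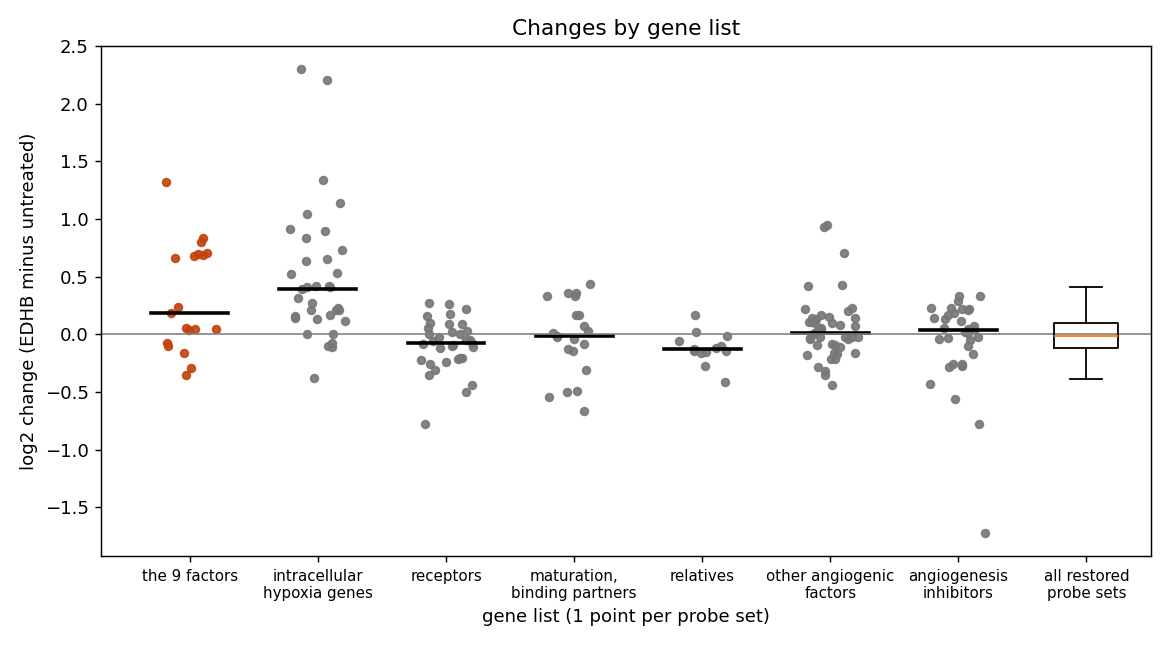
Log2 change, EDHB minus untreated, of every restored probe set in the secreted members and in the 6 lists of related genes, with a bar at the median of each, beside a box for all restored probe sets (box at the quartiles, whiskers over the central 95%). The median is 0.19 in the members and 0.39 in the intracellular hypoxia genes, and it lies between -0.13 and 0.04 in the other 5 lists.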

How the data were processed

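Biotin-labelled RNA of KYSE170 cells was measured on 4 Affymetrix arrays, 2 EDHB and 2 untreated. The authors deposited RMA intensities on a linear scale, per the submitters' processing notes and the values. RMA software, version and probe set definitions are not given in the sources used here. Values were expressed as log2 without a further offset.

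The layout of the values was inferred. Each replicate pair seems to have been split into probe sets at least 2-fold higher, at least 2-fold lower and the rest. The replicates then seem to have been laid side by side, which left replicate 2 out of register with the names. In replicate 1, 3 probe sets with a 2-fold difference broke this pattern and were kept out of its lists. The order of replicate 2 was restored by aligning untreated levels. Probe sets with a posterior of at least 0.95 were used (54465), leaving out 148. Gene names come from the platform annotation, in which 41091 probe sets have 1 gene, 1801 several and 11721 none listed.

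EDHB was compared with untreated in a linear model over all restored probe sets (R 4.3.3, limma 3.58.1), with moderated statistics on 2 residual and 2.85 prior degrees of freedom. P-values were adjusted by Benjamini-Hochberg and called under 0.05. Alignment and counts used Python 3.11.15. The fit was tested on simulated data. The members and lists were chosen with earlier results of these data known. All member probe sets are described, and of each list the 3 above-median probe sets with the largest change of 1 sign in both replicates; other genes were named after their values were seen. Alternatives were another prior, centring, loess, an offset of 16, removal of dim probe sets, 1 probe set a gene, a replicate block, replicate 1 alone and leaving out arrays. The replicate numbers carry no stated pairing.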

Additional observations from a re-analysis of the deposited data

How the results depend on the processing

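At an adjusted p of 0.05, limma called 0 of 54465 probe sets, 7311 at an unadjusted p under 0.05. It called 43 with an intensity-dependent prior (23 higher, 20 lower), 331 without dim probe sets (203 higher, 128 lower), 2 after median centring, 2 after cyclic loess and 2 with the brightest probe set per gene. Of the member probe sets 1 was called with the intensity-dependent prior and 5 without dim probe sets, and 0 under the other settings, which were the replicate block, centring, loess, the offset of 16, 1 probe set a gene, the other alignment settings and each left-out array. In the inhibitors list 1 was called with that prior and 1 without dim probe sets. In the intracellular hypoxia list 4 were called with that prior, 8 without dim probe sets, and 1 each after centring, loess and with the brightest probe set. The cause was not tested.

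The replicate block called 0 probe sets. With it the lowest adjusted p of the members was 0.378. Deviations from the group means correlated at 0.20 between arrays of the same number, over 2 pairs. No label states a shared source, and 2 pairs do not settle whether the numbers pair the arrays. The prior combined with the block, or with a left-out array, was added after seeing the data and called 0 in each case.

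Leaving out 1 array at a time called 0 probe sets each time. It kept the sign of VEGFA 210512_s_at (1.22 to 1.42), ADM (0.71 to 0.97), STC2 203439_s_at (0.68 to 0.93) and VEGFC (-0.45 to -0.24). It turned the sign of VEGFB (-0.15 to 0.01), PGF 209652_s_at (-0.02 to 0.10; -0.01 without the second untreated array), ANGPTL4 221009_s_at (-0.25 to 0.05), EDN1 218995_s_at (-0.31 to 0.42), EDN1 222802_at (-0.52 to 0.63), STC1 204596_s_at (-0.07 to 0.17; -0.03 without the second untreated array) and STC1 204597_x_at (-0.02 to 0.50). Replicate 1 alone, which needs no restoring, turned PGF 209652_s_at to -0.07, and gave 0.61 for VEGFA 212171_x_at and -0.20 for VEGFC. For EDN1 it gave 0.64 at 222802_at and 0.50 at 218995_s_at, against 0.05 and 0.06 over all arrays. Dim probe sets, such as those of STC1, have the least signal over background.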

Other observations

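Besides EDN1, CXCL8, CCN1 and CCN2, the probe sets that read at least 1.3-fold higher after EDHB within replicate 1 and at least 1.3-fold lower within replicate 2 included those of EGR1, KLF6, PTGS2, CXCL2, CXCL3, FST, HELLS, CLPB and DLGAP1-AS6, and the first 3 are given here as examples. EGR1, a zinc finger transcription factor, read 7.62 and 4.14 in the EDHB arrays, against 4.20 and 4.67 in the untreated arrays, so 1 EDHB array stood far above the other 3 arrays. KLF6 224606_at, another transcription factor, read 8.17 and 7.46 in the EDHB arrays and 7.58 and 7.85 in the untreated arrays. PTGS2 204748_at, the inducible cyclooxygenase, read 7.89 and 7.30 in the EDHB arrays and 6.46 and 7.77 in the untreated arrays. Here the untreated arrays were farther apart than the EDHB arrays, and the opposite directions rest on the pairing by replicate number. In all, 17 of the 21 probe sets had 1 gene name, from 13 genes. The criterion was chosen after these values were seen.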
